A study of Mus musculus with 6 samples.

Results

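The Rab GTPases are the largest branch of the small GTPase superfamily. The genes described here are all rows of the count matrix whose symbol is Rab followed by a number and, where present, a letter and a further digit, which gave 59 of 24411 genes. The rule used names only and no measured value. The RNA came from primary microglia, the macrophages that live in brain tissue, of C57BL/6J mice aged 8 weeks. The libraries were 3 from Mir137 knockout mice (gKO in the labels) and 3 from wild types (gWT). No other allele or agent is given for either group. The study asked how the loss of the microRNA miR-137 changes the microglial transcriptome. Whether each library stands for its own animal is not stated, so p-values measure the spread between libraries, which may be technical. The design text counts 4 mice and does not tie them to libraries, and the labels describe neither the extent of the deletion nor any Cre driver.

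Rab proteins mark membranes and direct vesicle traffic. An exchange factor loads a Rab with GTP, the GTP-bound form binds effector proteins on its membrane, a GTPase-activating protein turns it off, and GDI returns the lipid-anchored protein to the cytosol. In microglia, as in other macrophages, Rab5 and Rab7 act in turn as a phagosome matures, Rab11 and Rab8 serve recycling to the surface, and Rab27 serves secretion.

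The sequences below show the microRNA that Mir137 encodes and the places where a Rab transcript could pair with its seed. The mature miR-137-3p (GRCm38.p6, chr3:118433901-118433923, plus strand, sequence from RefSeq) is printed with its seed, bases 2 to 8, in capitals. The longest annotated 3′ UTR of each gene (GENCODE M21, GRCm38) was searched on the transcript strand for AGCAATA, the reverse complement of that seed, and 4 of the 59 Rab genes held 1 match each. Each site is printed 5′ to 3′ with the match in capitals.
mmu-miR-137-3p: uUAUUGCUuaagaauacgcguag
Rab7b, chr1:131714089-131714111, plus strand: ttaagacttcaagacAGCAATAa
Rab8a, chr8:72181257-72181279, plus strand: taaaaccaacgtaccAGCAATAg
Rab11b, chr17:33746780-33746802, minus strand: cctgtctgcaagtgaAGCAATAt
Rab35, chr5:115647386-115647408, plus strand: gtgtttgccaattcaAGCAATAa
A match is a description of letters, not a measured binding site. Of 12965 tested genes with such a UTR, 10.4% held at least 1 match, against 8.16% of the 49 tested Rab genes, whose UTRs were longer (median 1951 against 1210 bases).

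The libraries held 14603884 to 17652976 counts. Mir137 had 0 counts in all 6 libraries, so this gene does not check the labels. gKO replicate 3 lay far from the rest, at 91.5 on the first principal component against -37.7 to -3.45 for the other 5 libraries. Counts of called Rab and machinery genes and the medians of their larger groups are given with and without it. Single log2 fold changes are from all 6 libraries unless stated, and only some are also given without it. Markers of microglia were abundant. The ranges of their sum overlapped, the 12 genes summing to 41192 to 43847 CPM in gKO against 40514 to 43557 CPM in gWT. Singly, 0 of 12 were called with all libraries, and in 2 all gKO libraries lay below gWT (16.7%, background 11.3%). Without gKO replicate 3, 1 was called higher (background 3.99%) and 2 lower (background 3.82%). Of the 59 Rab genes, 49 had enough counts to be tested, and 20 overlap an exon of another annotated gene, 15 of them on the opposite strand. Because no strand setting is stated, reads of these genes cannot be told from those of their partners. Processed pseudogenes are annotated for Rab5a, Rab7, Rab9b and Rab11b, so their counts are uncertain where reads could be split.

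Rab transcript levels spanned several orders of magnitude in these cells. Levels between genes are compared in CPM, counts relative to library size, per kilobase of exon, as mean ± SD over all 6 libraries. Exon length merges every annotated exon, so a long annotation lowers a gene in this order whichever transcript is present. Rab14, with 13589 exon bases, had a mean of 340 CPM in gKO and 277 CPM in gWT but ranked 15 per kb. Rab7, which directs late endosomes and phagosomes to lysosomes, was first at 129.6 ± 18.5 CPM per kb. Rab5c, an early endosome Rab, followed at 127 ± 15.7 CPM per kb, a difference within the spread of both. A gap separated these from Rab31, Rab1b and Rab2a, at 73.7 ± 4.78, 71.9 ± 8.10 and 70.3 ± 17.0 CPM per kb, which did not differ from one another beyond their spread. Rab31 acts between the trans-Golgi network and endosomes, whereas Rab1b and Rab2a act between the endoplasmic reticulum and the Golgi. Then came Rab35 (53.9 ± 3.13 CPM per kb), Rab11a (52.7 ± 14.4), Rab8b (48.4 ± 5.97), Rab10 (47.7 ± 4.39) and Rab1, annotated as Rab1a (45.5 ± 8.04), each within the spread of its neighbour.

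**Figure D1:**
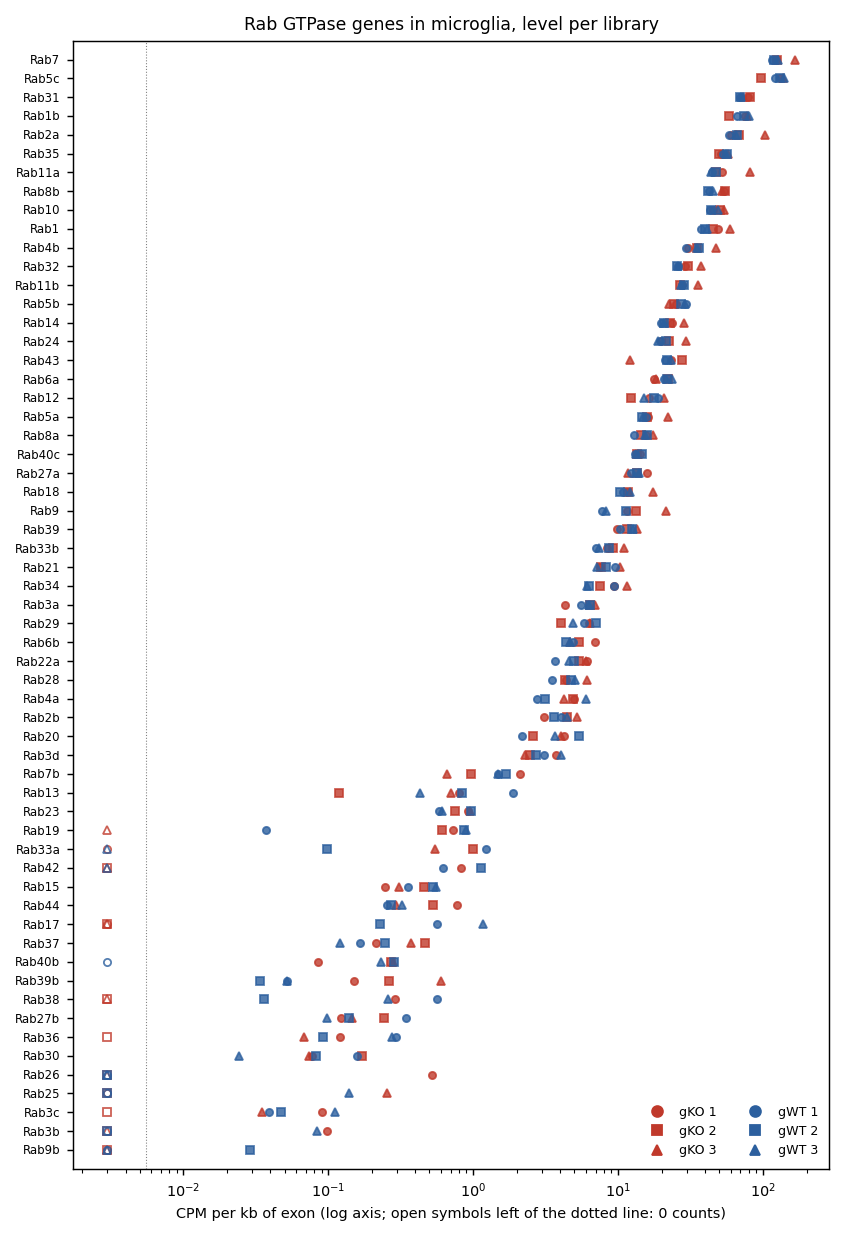
Level of the 59 Rab genes in each library, in CPM per kb of exon on a log axis, with genes ordered by their mean; red symbols are gKO, blue gWT, and open symbols left of the dotted line mark libraries with 0 counts, where symbols can overlap. Rab7 and Rab5c lie at the top, and the red triangle of gKO replicate 3 lies right of the other libraries in many of the upper rows and left of them in Rab43.

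At the low end of that range were Rabs known from neurons, epithelia and glands. Rab3b, Rab3c, Rab9b, Rab25 and Rab26 had means of 0.0870 CPM per kb or less. The 10 genes that did not pass the filter were these 5 with Rab17, Rab38, Rab39b, Rab40b and Rab42. Rab38, Rab40b and Rab42 had 0 to 15 counts in each library, with overlapping groups. Rab26, a Rab of secretory granules, had 26 counts in gKO replicate 1 and 0 counts in each of the other 5 libraries. Rab3a, the synaptic vesicle Rab, was present at 6.00 ± 0.952 CPM per kb. The summed neuronal markers were 11.5 to 17.0 CPM in gKO against 15.1 to 22.6 CPM in gWT, and the part of neuronal RNA in the Rab3a level was not tested.

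Paralogues of a Rab pair were unequal in level. Per kilobase, Rab7 exceeded Rab7b, a macrophage Rab of lysosomes, 77.9 ± 7.34 times in gWT (SD, n = 3), and 59.1, 130.4 and 253 times in the gKO libraries. Rab27a, which docks secretory granules and multivesicular bodies, exceeded Rab27b 91.1 ± 52.8 times in gWT and 88.3 ± 37.1 times in gKO (SD, n = 3 each). Within the Rab5 isoforms, Rab5c exceeded Rab5b 4.60 ± 0.41 times in gWT and 5.12 ± 1.06 times in gKO. The Rab1 to Rab1b ratio was 0.651, 0.781 and 0.773 in the gKO libraries and 0.564, 0.536 and 0.518 in the gWT libraries, so the groups did not overlap. The Rab11a to Rab11b ratio was 1.90, 1.77 and 2.28 in gKO against 1.61, 1.64 and 1.60 in gWT, again without overlap. The Rab5a to Rab5b ratio was 0.642, 0.651 and 0.987 in gKO against 0.536, 0.536 and 0.514 in gWT. In this ratio gKO replicate 3 set the height of its group, although the groups did not overlap without it either. The Rab6a to Rab6b ratio, of Golgi Rabs, was 2.53, 4.13 and 3.91 in gKO, all below the 4.19, 4.98 and 5.11 of gWT. These 4 of 12 ratios are the ones whose groups did not overlap, were singled out after their values were seen, and were not tested. The Rab5 ratios share genes, so the 12 are not independent. No share was measured over ratios of other gene pairs, so whether 4 of 12 is unusual cannot be said. Of single tested genes, 21.3% had groups that did not overlap.

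No Rab gene passed the test between genotypes. Of 49 tested Rab genes, edgeR called 0 higher and 0 lower by its quasi-likelihood test, at a Benjamini-Hochberg p under 0.05 adjusted over all 13403 genes tested. Of all genes 0.627% were called, 0.395% higher and 0.231% lower. At an unadjusted p under 0.05 there were 4 Rab genes, 8.16% of those tested against 10.9% of all genes. These 4 were Rab8b, Rab9, Rab1 and Rab22a, each higher in gKO (background 5.16%), and 0 were lower (background 5.74%). DESeq2 called 0 Rab genes higher and 1 lower, against 1.20% and 1.57% of all genes. That gene was Rab17, which edgeR did not test because of its low counts. The voom fits, with and without quality weights, called 0 Rab genes. The groups did not overlap for 10 of the 49 (20.4%), close to the 21.3% of all genes. Of these 10, gKO lay above gWT in 9 and below it in 1. Of the 2849 genes without overlap among all 13403 tested, gKO lay above gWT in 1341 and below it in 1508.

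The intervals show how large a change the data leave room for. For 36 of the 49 tested Rab genes (73.5%), the 95% interval of the fold change lay within 2-fold in either direction, against 59.0% of all tested genes. A p that misses the threshold does not show that a gene is unchanged, and the other 13 are mostly of low level. On simulated data the test missed most built-in differences of 1.5-fold (2.42% called) and 2-fold (28.2% called). The absence of called Rab genes alone therefore does not exclude changes of that size, and for 36 genes the intervals above stay within 2-fold. The simulation drew its changed genes from all tested genes, so its rates are not those of the Rab genes. The median log2 fold change of gKO over gWT was 0.14 over the Rab genes and 0.01 over all tested genes, with 31 of 49 positive (63.3% against 50.9% of all genes). Without gKO replicate 3, the Rab median was 0.01 and 28 of 52 tested Rab genes were positive. In that fit the median over all tested genes was -0.02, and 6344 of the 13403 genes tested with all libraries were positive.

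**Figure D2:**
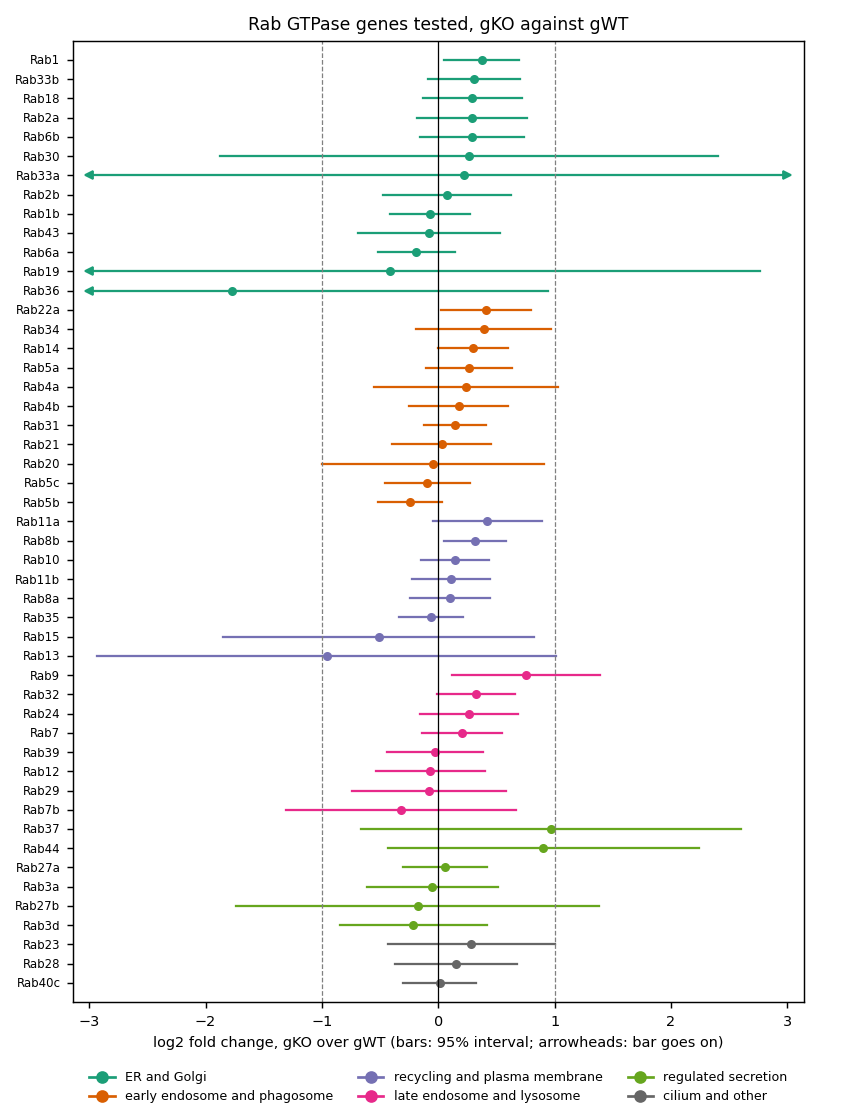
Log2 fold change of gKO over gWT (points) with its 95% interval (bars) for the 49 tested Rab genes, coloured by the compartment where each is best known to act; dashed lines mark a 2-fold change. Nearly all points of well-measured genes lie within the dashed lines, and the bars that cross them belong mostly to genes of low level such as Rab33a, Rab19 and Rab36.

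In the recycling and plasma membrane group, 0 of 8 tested genes were called and the median log2 fold change was 0.11, which turned to -0.02 without gKO replicate 3. Rab8b, which carries cargo from recycling endosomes and the Golgi to the surface, had the smallest p of the family. It was measured at 255, 260.4 and 247 CPM in gKO and at 200.1, 197 and 216 CPM in gWT. All 3 gKO libraries lay above all 3 gWT libraries. Its means were 254 ± 6.54 and 204 ± 9.88 CPM (SD, n = 3 each), and its log2 fold change was 0.31 with an SE of 0.12 (edgeR adjusted p = 0.374). Without gKO replicate 3, Rab8b was the single Rab gene called higher by edgeR (log2 fold change 0.32, adjusted p = 0.0115), and 0 were called lower. In that fit 7.81% of all genes were called, 3.99% higher and 3.82% lower. Without any other single library its adjusted p was 0.413 to 0.990. Its paralogue Rab8a was at 72.8, 67.1 and 81.8 CPM in gKO against 59.9, 74.5 and 72.2 CPM in gWT, and the groups overlapped. Its log2 fold change was 0.10, and 0.01 without gKO replicate 3.

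Rab11a, the marker Rab of recycling endosomes, was at 156, 142 and 244 CPM in gKO against 133, 141 and 130.4 CPM in gWT. The groups did not overlap, but gKO replicate 2 exceeded gWT replicate 2 only narrowly. Its log2 fold change was 0.42 with an SE of 0.20 (edgeR adjusted p = 0.513) with all libraries and 0.14 without gKO replicate 3. Rab11b was at 169, 164 and 219 CPM in gKO against 169, 176 and 167 CPM in gWT. Rab10, which delivers receptors and transporters to the plasma membrane, was at 159, 178 and 191 CPM in gKO against 150.4, 155 and 172 CPM in gWT. Without gKO replicate 3, the log2 fold change of Rab11b went from 0.11 to -0.04 and that of Rab10 from 0.15 to 0.07. Rab35, of fast endocytic recycling, had a log2 fold change of -0.06 with a 95% interval from -0.34 to 0.22. Rab15, an endosomal Rab, had 20 to 31 counts in gKO against 28 to 44 in gWT (log2 fold change -0.51). Rab13, a Rab of epithelial and endothelial junctions, was low, with 32, 4 and 23 counts in gKO against 74, 34 and 17 in gWT (edgeR adjusted p = 0.763). The 10 endothelial markers summed to 421 to 519 CPM in gKO against 787 to 1008 CPM in gWT, 1 of 10 being called lower (background 0.231%; 9 of 10 without gKO replicate 3, background 3.82%; 4 of 10 in DESeq2, background 1.57%), and their part in the Rab13 values was not tested. In bulk RNA, fewer cells of a type and less RNA per cell cannot be told apart.

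Of the 11 tested early endosome and phagosome Rabs, 0 were called, and the groups did not overlap for 5 (45.5% against 21.3% of all genes). The median log2 fold change was 0.17 with all libraries and 0.03 without gKO replicate 3. Rab22a, which sorts cargo in early endosomes, was at 44.1, 39.0 and 43.6 CPM in gKO against 26.3, 35.5 and 33.3 CPM in gWT (log2 fold change 0.41 with SE 0.17 and an edgeR adjusted p of 0.430). Its gKO values were close together and above all of gWT, and its log2 fold change was 0.38 without gKO replicate 3. Rab14, of early endosomes and the Golgi, was at 322, 309.8 and 389 CPM in gKO against 268, 282 and 281 CPM in gWT (log2 fold change 0.30, edgeR adjusted p = 0.469). Its log2 fold change was 0.18 without gKO replicate 3. Rab31 was at 299, 309 and 278 CPM in gKO against 267, 266 and 269 CPM in gWT, a narrow but complete separation (log2 fold change 0.14, edgeR adjusted p = 0.729).

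The 3 Rab5 isoforms, which share the early endosome, were not called. Rab5a was at 85.4, 83.5 and 117 CPM in gKO against 82.8, 76.6 and 78.4 CPM in gWT (log2 fold change 0.27, edgeR adjusted p = 0.629). Rab5b was at 106, 102 and 94.5 CPM in gKO against 123, 114 and 122 CPM in gWT (log2 fold change -0.24 with SE 0.12 and an edgeR adjusted p of 0.517). Rab5b was the 1 tested Rab gene with all gKO libraries below all gWT libraries. Rab5c was at 289, 214 and 302 CPM in gKO against 265, 287 and 308 CPM in gWT, and its groups overlapped (log2 fold change -0.09). The log2 fold changes of Rab5a, Rab5b and Rab5c were 0.08, -0.21 and -0.20 without gKO replicate 3. Rab34, a Rab of phagosomes and cilium formation, was at 22.2, 18.0 and 27.7 CPM in gKO against 22.4, 15.0 and 14.5 CPM in gWT (edgeR adjusted p = 0.644). Rab20, which macrophages use on phagosomes, had 103, 53 and 79 counts in gKO against 51, 132 and 87 in gWT, with no separation of the groups. Rab4a and Rab4b, of fast recycling from early endosomes, and Rab21, which carries integrins, had log2 fold changes of 0.24, 0.17 and 0.03. These became 0.30, -0.03 and -0.15 without gKO replicate 3, and that of Rab34 went from 0.39 to 0.21.

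**Figure D3:**
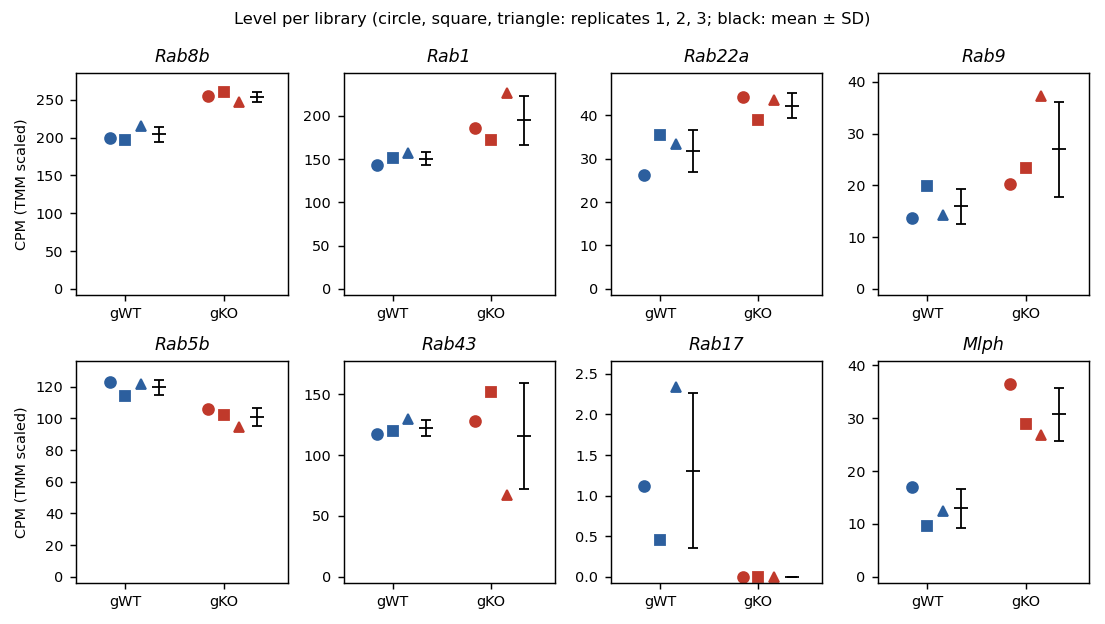
TMM-scaled CPM in each library for 7 Rab genes and the Rab27 effector gene Mlph, on linear axes with 0 marked; circles, squares and triangles are replicates 1, 2 and 3, red is gKO, blue is gWT, and black marks give mean ± SD (n = 3). The gKO points of Rab8b, Rab1, Rab22a, Rab9 and Mlph all lie above gWT, those of Rab5b and Rab17 below it, and in Rab43 only gKO replicate 3 lies below the gWT points.

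Rab17 was the member with the clearest split between the genotypes, at a very low level. Rab17 (chromosome 1, 90958133 to 90969661, GRCm38, minus strand) acts in epithelial transcytosis and recycling. It had 0, 0 and 0 counts in gKO against 19, 8 and 40 in gWT. Set against a floor of 3 counts over the gKO group, it was at least 20.9-fold lower in gKO, counting error only. It did not pass the low-count filter, and with no filter its edgeR adjusted p was 0.210. DESeq2 called it lower (adjusted p = 0.00710), where 2.77% of genes were called. In the authors' deposited table it is the single Rab gene among 201 lower and 75 higher genes, with a log2 fold change of -6.77 and an adjusted p of 0.00692. The markers of ependyma and choroid plexus, which are epithelia, summed to 987 to 2892 CPM in gKO against 1731 to 2918 CPM in gWT. Of 8 such markers 6 were tested, with a median log2 fold change of -0.62. Of the 6, 0 were called (background 0.627%), and 1 was called lower without gKO replicate 3 (background 3.82%). The part of these markers' cells in the Rab17 counts was not tested.

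The nearest expressed neighbours of Rab17 were also apart between the genotypes, which was seen after the values were known. Mlph (chromosome 1, 90915085 to 90951142, plus strand) encodes melanophilin, which links Rab27a to myosin Va, and its annotated end lies 6990 bases from that of Rab17. Mlph was at 36.4, 28.9 and 26.8 CPM in gKO against 17.0, 9.66 and 12.4 CPM in gWT, so all gKO libraries lay above gWT. Its log2 fold change was 1.24 with an SE of 0.25 (edgeR adjusted p = 0.0997). DESeq2 called Mlph (adjusted p = 0.00173), and the authors' deposited table lists it as higher (log2 fold change 1.24). Its edgeR adjusted p was 0.00255 without gKO replicate 3, and 0.190 to 0.463 without any other single library. Lrrfip1 (chromosome 1, 90998737 to 91128944, plus strand), whose product binds nucleic acids, begins 29075 bases beyond Rab17. It rose from 52.3, 69.1 and 59.5 CPM in gWT to 102, 120.2 and 124 CPM in gKO (log2 fold change 0.93 with SE 0.16 and an edgeR adjusted p of 0.0457). The adjusted p of Lrrfip1 was 0.110 to 0.353 without any 1 library other than gKO replicate 3, and 0.000513 without that one. The cause of these differences beside Rab17, on another chromosome than Mir137, was not tested. The remaining annotated gene of the matrix within 100 kb, Prlh, had 0 counts in every library.

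In the late endosome and lysosome group, 0 of 8 tested genes were called and the median log2 fold change was 0.09, which turned to -0.03 without gKO replicate 3. Rab9, which returns cargo from late endosomes to the Golgi, was at 20.2, 23.2 and 37.3 CPM in gKO against 13.7, 19.8 and 14.4 CPM in gWT. The groups did not overlap, the log2 fold change was 0.75 with an SE of 0.28 (edgeR adjusted p = 0.377), and without gKO replicate 3 it was 0.44 (adjusted p = 0.230). Rab32, a Rab of lysosome-related organelles and mitochondria, was at 67.6, 71.0 and 87.9 CPM in gKO against 60.6, 59.5 and 60.9 CPM in gWT (log2 fold change 0.32, edgeR adjusted p = 0.481). Rab7 was at 323, 328 and 435 CPM in gKO against 303, 312 and 329.7 CPM in gWT, with overlap and a 95% interval of 0.906-fold to 1.46-fold. Rab7b was at 9.68, 4.46 and 3.04 CPM in gKO against 6.89, 7.83 and 6.85 CPM in gWT, so the gKO libraries scattered on both sides of gWT. Rab12, Rab29 and Rab39 had log2 fold changes of -0.07, -0.08 and -0.03, and Rab24, linked to autophagy, had 0.26. Without gKO replicate 3 the log2 fold changes of Rab32, Rab7 and Rab24 went from 0.32, 0.20 and 0.26 to 0.19, 0.04 and 0.08. Those of Rab12, Rab29 and Rab39 went to -0.27, -0.20 and -0.16, and that of Rab7b went from -0.32 to -0.03. Rab39b, which did not pass the filter, had 9, 13 and 29 counts in gKO against 3, 2 and 3 in gWT, without overlap (DESeq2 adjusted p = 0.193).

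Of 13 tested Rabs of the endoplasmic reticulum and Golgi, 0 were called, and the median log2 fold change was 0.22, and 0.15 without gKO replicate 3. Rab1, of transport from the endoplasmic reticulum to the Golgi, was at 186, 173 and 227 CPM in gKO against 143, 152 and 157 CPM in gWT (log2 fold change 0.37 with SE 0.14 and an edgeR adjusted p of 0.384). Rab1 was the single member of the 13 without overlap between the genotypes (7.69%, against 21.3% of all tested genes). Its log2 fold change was 0.24 without gKO replicate 3 (edgeR adjusted p = 0.0708). Rab1b, with the same role, was at 171, 132 and 175 CPM in gKO against 151, 169 and 182 CPM in gWT. Rab2a was at 128, 146 and 222 CPM in gKO against 124, 142 and 139.6 CPM in gWT, and its log2 fold change went from 0.29 to 0.01 without gKO replicate 3. Rab18, of lipid droplets and the endoplasmic reticulum, was at 79.1, 80.2 and 119 CPM in gKO against 73.6, 71.3 and 82.6 CPM in gWT. Rab33b, of the Golgi and autophagosome formation, was at 29.8, 32.8 and 38.7 CPM in gKO against 25.0, 30.6 and 26.2 CPM in gWT. In Rab18 and Rab33b the groups overlapped, and without gKO replicate 3 their log2 fold changes went from 0.29 and 0.31 to 0.06 and 0.19. Rab6a and Rab6b, which act in traffic at the Golgi, had log2 fold changes of -0.19 and 0.29 (edgeR adjusted p = 0.710 and 0.667). Rab2b had 0.08, and -0.11 without gKO replicate 3. Rab43 had -0.08, and 0.19 without that library, and Rab19 had -0.42, and 0.15 without it. The counts of Rab19, Rab30, Rab33a and Rab36 were at most 31 in any library. Rab36 had the lowest log2 fold change of the 49 tested Rab genes, -1.77, from 13, 0 and 6 counts in gKO against 31, 10 and 29 in gWT, which overlapped.

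Of the 6 tested secretory Rabs, 0 had groups that did not overlap, against 21.3% of all tested genes, and 0 were called (background 0.627%). Their median log2 fold change was 0.00, and -0.09 without gKO replicate 3. Rab27a was at 61.6, 52.7 and 45.5 CPM in gKO against 47.5, 52.1 and 53.9 CPM in gWT, with a 95% interval of 0.808-fold to 1.34-fold. Rab3a and Rab3d had log2 fold changes of -0.05 and -0.22, and Rab3b and Rab3c did not pass the filter. Rab27b had 23, 38 and 22 counts in gKO against 62, 26 and 18 in gWT. Rab37 and Rab44, Rabs of granule-bearing immune cells, had the 2 largest positive log2 fold changes of the 49 tested Rab genes, 0.97 (SE 0.71) and 0.90 (SE 0.58), on few counts. Rab44 had 68, 39 and 21 counts in gKO against 22, 24 and 28 in gWT, and Rab37 had 20, 36 and 28 against 15, 23 and 11. The 11 neutrophil markers summed to 566 to 1063 CPM in gKO against 283 to 361 CPM in gWT, 2 of 11 being called higher (background 0.395%). Without gKO replicate 3 (background 3.99%) and in DESeq2 (background 1.20%) 6 of 11 were called higher, and their part in these values was not tested. The 3 tested Rabs of the cilium and other sites, Rab23, Rab28 and Rab40c, were not called, and Rab40c had nearly equal means, at 42.8 ± 1.18 CPM in gKO against 42.4 ± 2.47 in gWT (both SD over 3 libraries).

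gKO replicate 3 moved with many of the higher values. It was the highest of the 6 libraries in 23 of 49 tested Rab genes (46.9%, against 31.3% of all tested genes) and the lowest in 6 (12.2% against 31.9%). Summed over the 59 genes, Rab transcripts made up 3795, 3701 and 4415 CPM in gKO against 3456, 3620.0 and 3697 CPM in gWT. The 2 lower gKO sums lay just above the highest gWT sum. Rab43, a Golgi Rab, went the other way, at 128, 152 and 67.0 CPM in gKO against 117, 119.8 and 129 CPM in gWT. Its log2 fold change was -0.08 with all libraries and 0.19 without gKO replicate 3. Rab43 and Rab7 lie 186941 bases apart on chromosome 6, and in this library they deviated from the other gKO libraries in opposite directions, by -1.05 and 0.42 on the scale of log2(CPM + 1). Across all tested genes, the deviation of this library fell with exon length (Spearman rho = -0.45), and across the 49 Rab genes rho was -0.18. Genes are not independent replicates, and the part of length in these values was not tested.

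**Figure D4:**
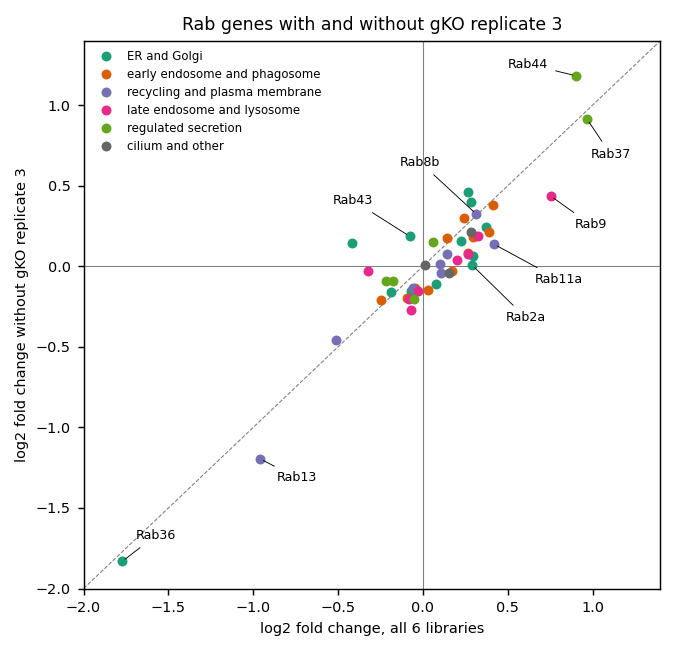
Log2 fold change of gKO over gWT for the 49 tested Rab genes with all 6 libraries (horizontal axis) and without gKO replicate 3 (vertical axis), coloured by compartment, with the dashed line marking equal values. Rab8b lies on the line, Rab9, Rab11a and Rab2a lie below it, and Rab43 lies above it with a change of sign.

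The 4 Rab genes with an AGCAATA match were not called. Their log2 fold changes were -0.32 for Rab7b, 0.10 for Rab8a, 0.11 for Rab11b and -0.06 for Rab35. The median of these 4 was 0.02, beside 0.01 for the 1344 tested genes with a match. None of the 4 had groups that did not overlap, a trait of 21.3% of all tested genes.

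The proteins that switch, carry and read the Rabs were listed as 163 genes. Of these, 153 were tested and edgeR called 0, with 11 (7.19%) at an unadjusted p under 0.05 against 10.9% of all genes. DESeq2 called 1 higher (background 1.20%) and 1 lower (background 1.57%). Voom with quality weights called 3 higher and 0 lower, where it called 3.08% of all genes, 1.95% higher and 1.13% lower. Without gKO replicate 3, edgeR called 14 of 155 higher (9.03% against 3.99% of all genes) and 1 lower (0.645% against 3.82%). The exchange factors (48 tested) had a median log2 fold change of -0.01, the GTPase-activating proteins (38) of 0.00, the prenylation and GDI genes (7) of 0.08 and the effectors (60) of -0.11. Leaving out gKO replicate 3 gave medians of 0.03, 0.11, 0.04 and 0.05, so that of the effectors turned in sign.

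Among exchange factors, Rin2, which activates Rab5, was at 426, 423 and 476 CPM in gKO against 339, 355 and 345 CPM in gWT. The groups did not overlap (log2 fold change 0.35, edgeR adjusted p = 0.319), and it was called without gKO replicate 3 (adjusted p = 0.0110). Dennd4a, which activates Rab10, had a log2 fold change of 0.40 with overlapping groups (edgeR adjusted p = 0.452) and 0.55 without gKO replicate 3 (adjusted p = 0.000257). Als2cl, related to the Rab5 exchange factor alsin, was low and had a log2 fold change of -1.09 (edgeR adjusted p = 0.380). Of the GTPase-activating proteins, Tbc1d2, which acts on Rab7, had a log2 fold change of -1.09, and Tbc1d23 and Sgsm3 had 0.42 and 0.40 (edgeR adjusted p = 0.351, 0.382 and 0.481). Chml and Rabggtb, of the machinery that attaches the lipid anchor, had log2 fold changes of -0.30 and 0.37 (edgeR adjusted p = 0.649 and 0.688).

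The effectors with the smallest p were Mlph, given above, and Rims2 and Myrip. Rims2, a Rab3 effector of presynaptic active zones, had 0, 0 and 0 counts in gKO against 19, 22 and 26 in gWT, at least 20.9-fold lower against a floor of 3 counts over the group (edgeR adjusted p = 0.164). DESeq2 called Rims2 lower (adjusted p = 0.00301), and the authors' deposited table lists it with a log2 fold change of -6.76. It was the 1 machinery gene called lower by edgeR without gKO replicate 3 (adjusted p = 0.0458). Without any other single library its edgeR adjusted p was 0.217 to 0.738. Myrip, which like Mlph links Rab27a to a myosin, was at 3.66, 5.90 and 4.74 CPM in gKO against 11.5, 8.69 and 7.73 CPM in gWT. Its log2 fold change was -0.97 with an SE of 0.31 (edgeR adjusted p = 0.30). Mlph and Myrip had groups that did not overlap, in opposite directions, while Rab27a itself overlapped. Both are named here for their small p, so this separation was largely built in. Of the 60 tested effectors 18.3% had groups that did not overlap, against 21.3% of all genes.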

How the data were processed

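Total RNA of 6 microglia libraries was sequenced, 3 per genotype. The authors deposited expected counts for each gene symbol and library. Their lists of changed genes hold, per the file headers, a signal (the mean normalized count), a log2 fold change, 2 scores (its standard error and test statistic) and a p-value, raw and adjusted. STAR 2.7.9a, RSEM, DESeq2 and the builds GRCm38 and mm10 are named in the submitters' processing notes. Which annotation and strand setting they used is not given in the sources used here.

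Expected counts were rounded and fitted with edgeR 4.0.16 (R 4.3.3) on all genes: TMM, the default low-count filter and the robust quasi-likelihood test on genotype alone. Standard errors are the absolute log2 fold change over the square root of F, and 95% intervals use the fit's degrees of freedom. CPM values are TMM scaled. Exon length merges all exons of GENCODE M21. By name 58 Rab symbols matched and 1, Rab1, by synonym. Same-numbered libraries did not deviate together (r from -0.05 to 0.05). The test was tried on simulated data, where its call rate was 0.0265% without a built-in difference. With a built-in fold of 1.5 the rate was 2.42%, with 2 it was 28.2%, and with 4 it was 77.1%. Alternatives used DESeq2 1.42.0 and limma 3.58.1, other scalings and filters, a replicate block, a length correction and each library left out.

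The members, roles and lists were chosen with earlier results of these data known. Values per library are given for the 12 smallest p, the 5 highest levels per kb, genes called with all libraries or without gKO replicate 3, and the Rab5, Rab7, Rab8, Rab10, Rab11 and Rab27 members; of the Rab machinery lists, for called genes or otherwise the 3 smallest p. Of these, 1 machinery gene is not reported here.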

Additional observations from a re-analysis of the deposited data

How the results depend on the processing

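The count of Rab genes called was 0 in each direction in edgeR with all libraries and under every alternative run except DESeq2, with 1 lower (Rab17), and the fit without gKO replicate 3, with 1 higher (Rab8b). Leaving out each library in turn gave 0 to 1 higher and 0 lower Rab genes, 0 to 14 higher and 0 to 1 lower machinery genes, and 0 to 551 higher and 0 to 528 lower genes in the whole table. Machinery genes numbered 1 higher and 1 lower in DESeq2, 3 higher with voom and quality weights, and 1 higher with the length trend removed. Of all genes, 53 higher and 31 lower became 179 and 235 in DESeq2, 261 and 152 with voom and quality weights, 98 and 79 with the length trend removed, and 61 and 47 without a low-count filter. With the replicate block, 11 genes were higher and 7 lower, 0 Rab genes were called, and Lrrfip1 lost its call (adjusted p = 0.0844), as it did with upper-quartile scaling. The check of replicate numbers found no pairing of the libraries, and 1 of 3 gKO libraries correlated best with its own number. Because gKO replicate 3 lay far from its group, this check could miss a pairing. The log2 fold change turned in sign under at least 1 alternative for 19 of the 49 tested Rab genes, 7 of them without gKO replicate 3 (Rab2b, Rab4b, Rab11b, Rab19, Rab21, Rab28 and Rab43), and none of the 19 was called. Among the genes named by the rule these were Rab11b (-0.0083 with voom and quality weights; -0.045 to 0.18 with 1 library left out), Rab1b (-0.15 to 0.046), Rab5c (-0.20 to 0.042), Rab27a (-0.063 to 0.15) and Rab27b (0.14 with voom and quality weights; -0.52 to 0.52). The Rab median went from 0.14 to 0.01 without gKO replicate 3, and that of all tested genes from 0.01 to -0.02. The cause of these differences was not tested. Depth limits what can be said of Rabs below about 1 CPM, where a few reads set the fold change.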
